A study of Homo sapiens with 6 samples.

Results

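The genes described here are 44 genes of the unfolded protein response and the integrated stress response, read in a table of 20668 genes. They were chosen by name from a fixed list, which was made with earlier results of these data known. They fall into 6 groups by role: 11 chaperones and folding enzymes of the endoplasmic reticulum (ER), 4 stress sensors, 7 transcription factors, 9 genes of amino acid synthesis and transport that are known targets of ATF4, 6 effectors and feedback regulators, and 7 genes of ER-associated degradation. Of the 44, 43 had a row in the table and all 43 passed the filter on low counts. DERL3, a channel component of ER-associated degradation, had no row, and its 10 annotated transcripts held 4 estimated reads over the 6 libraries together. The cells were SH-SY5Y, a human neuroblastoma line with features of sympathetic neuron precursors, grown without treatment. There were 3 RNA-seq libraries of wild-type cells (WT) and 3 of cells whose DNAJC12 gene was knocked out with CRISPR/Cas9 (KO). The DNAJC12 protein assists HSP70 chaperones and is known for its role with the aromatic amino acid hydroxylases; the series text names cell invasion as the property under study. The labels give neither the guide's position, nor the number of KO clones, nor whether replicates were separate cultures, so the spread behind each p-value is that of these libraries and may be technical only.

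Proteins that enter the ER are folded by resident chaperones and oxidoreductases, and the unfolded protein response adjusts that capacity. IRE1 (gene ERN1) cuts a short intron out of XBP1 messenger RNA, ATF6 is cleaved to release a transcription factor, and PERK (EIF2AK3) phosphorylates the translation factor eIF2. GCN2 (EIF2AK4) phosphorylates the same factor when amino acids are short, and this shared arm, the integrated stress response, raises translation of ATF4, which drives amino acid genes, DDIT3 (CHOP) and feedback genes such as TRIB3 and PPP1R15A. ATF4, ATF6 and the sensors are controlled largely at the protein level, which RNA levels do not show.

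The table held 19321842 to 21869659 counts per library, so that 3 counts corresponded to 0.140 to 0.153 CPM (counts scaled by TMM-adjusted library size). DNAJC12 itself stood at 23.0, 21.4 and 20.0 CPM in WT replicates 1, 2 and 3 and at 5.91, 5.87 and 4.85 CPM in the KO replicates, a log2 difference of -1.95 ± 0.13 (edgeR adjusted p = 1.25e-06). Part of the targeted RNA therefore remained in every KO library. Of 13 sympathoadrenal neuroblastoma markers 12 were expressed and tested, with a summed level of 5015 to 5225 CPM in WT and 4442 to 4552 CPM in KO; TH had no row. The 8 of 9 mesenchymal markers with a row summed to 2896 to 3099 CPM in WT and 4190 to 4390 CPM in KO, with 4 higher and 1 lower. Of 4 epithelial and 4 blood markers, 2 of each had a row, summing to at most 1.83 and 1.32 CPM; none of 3 endothelial markers had a row, so no level is given. Their part in the results below was not tested. In bulk RNA, fewer cells with a transcript and less of it per cell cannot be told apart.

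More of the stress-response genes fell than rose in the KO libraries. Of the 43 tested, 12 fell, 1 rose and 30 did not pass the threshold, an adjusted p of 0.05 by edgeR's quasi-likelihood test with Benjamini-Hochberg adjustment over all 16403 genes tested. That is 27.9% of the members lower and 2.33% higher, against 11.5% lower and 14.5% higher over all genes tested. The members were chosen with earlier results of these data known, which these shares do not allow for. The median log2 difference, KO minus WT, was -0.09 for the members and 9.19e-06 for all genes. Differences below are log2 values of KO minus WT ± SE from that fit (n = 3 per genotype), and levels are CPM.

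The 12 that fell were PDIA3, HYOU1, PDIA4 and P4HB among the chaperones, the sensor EIF2AK3, the transcription factors CEBPB and DDIT3, the cystine transporter SLC7A11, the effectors DDIT4, VLDLR and TRIB3, and EDEM1 of the degradation group. PPP1R15A was the single member that rose. Of the 13, 8 changed by less than 1.5-fold. In 17 members (39.5%) all 3 KO values lay below all 3 WT values, against 20.1% of genes tested, and in 3 (6.98%) all lay above, against 21.7%. The other 23 overlapped. With 1 library left out at a time the number lower was 8 to 13 and the number higher 0 to 3: without KO replicate 3 it was 8 lower, without WT replicates 1 or 2 none rose, and without WT replicate 3 or KO replicate 1 there were 2 and 3 higher. With library sizes in place of TMM scaling, 14 members were lower and 1 higher, while over all genes the split moved from 2383 higher and 1887 lower to 2055 and 2438.

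**Figure D1:**
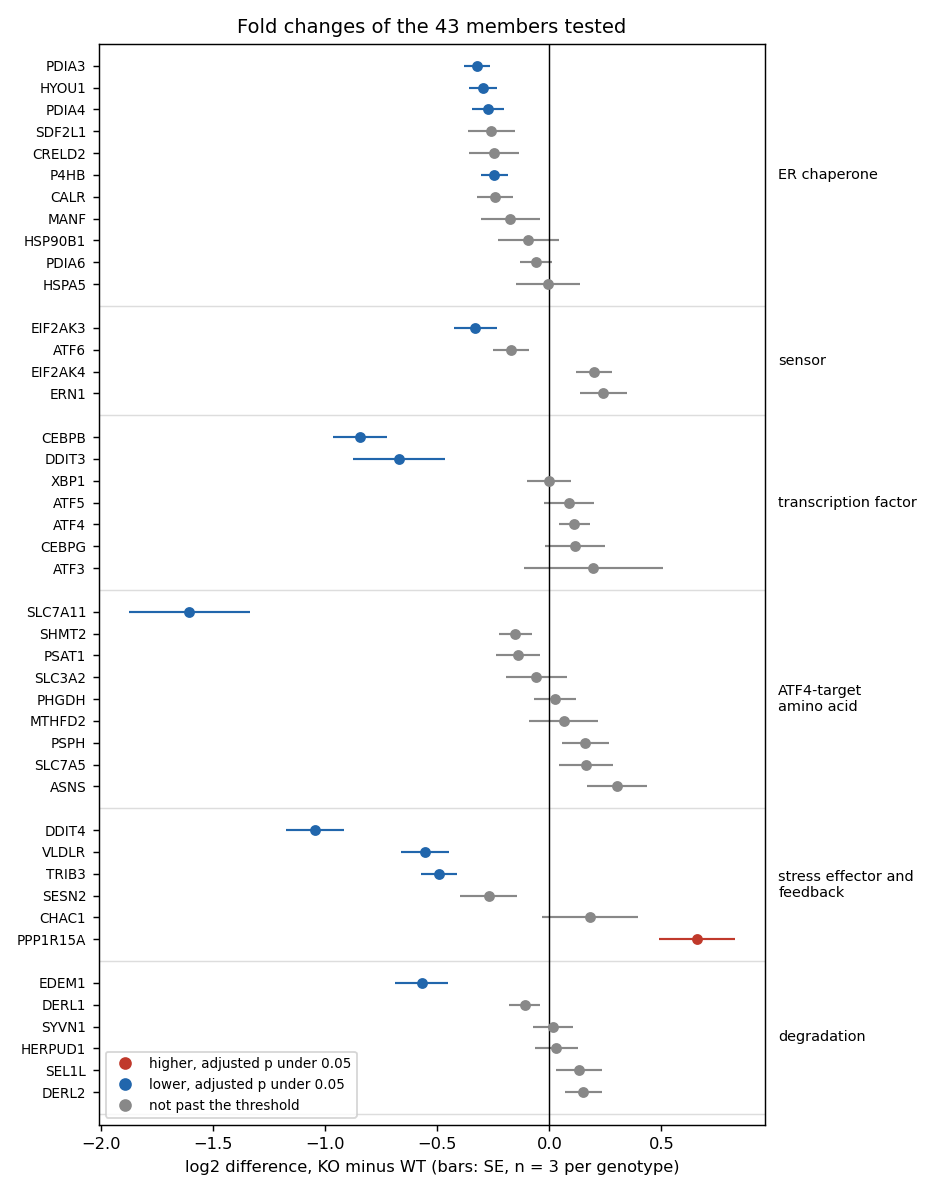
Log2 difference, KO minus WT, on the x axis for each of the 43 members tested, by group; points are edgeR estimates, bars are SE with n = 3 per genotype, and blue and red mark members lower or higher at an adjusted p under 0.05. Differences run from -1.61 for SLC7A11 to 0.66 for PPP1R15A, and the 11 chaperone genes all lie at or left of 0.

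Among the ER chaperones and folding enzymes 4 of 11 fell (36.4%, against 11.5% of all genes tested) and 7 did not pass. All 11 estimates were below 0 (median -0.25, range -0.32 to -0.0062). However, that of HSPA5 turned above 0 with limma-voom, and those of HSPA5, HSP90B1 and PDIA6 did when some single libraries were left out. Processed pseudogene copies of PDIA3 and HSP90B1, and of ATF4 and PSPH below, could share reads with them, so these 4 values are less certain. Sharing of reads was not tested, for these genes or for the other members. PDIA3 (ENSG00000167004, chromosome 15, 43746438 to 43773278 in GRCh38.p14), the oxidoreductase that works with calnexin and calreticulin on glycoproteins, was measured at 649.8, 666 and 710 CPM in WT replicates 1, 2 and 3 and at 526, 539 and 553 CPM in the KO replicates. The groups did not overlap, and the difference was -0.32 ± 0.06 (edgeR adjusted p = 0.00187). HYOU1 (ENSG00000149428, chromosome 11, 119044188 to 119057205), an ER-resident HSP70 family member that acts as exchange factor for BiP, stood at 376, 406 and 428 CPM in WT and at 327, 329 and 330.3 CPM in KO. The 3 KO values were nearly equal, and all were below WT (-0.30 ± 0.06, adjusted p = 0.00542).

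PDIA4 (ENSG00000155660, chromosome 7, 149003051 to 149028505), another disulfide isomerase, was at 465, 491 and 549.7 CPM in WT and 405, 434 and 408 CPM in KO (-0.27 ± 0.07, edgeR adjusted p = 0.0167). P4HB (ENSG00000185624, chromosome 17, 81843166 to 81860535), protein disulfide isomerase itself and a subunit of collagen prolyl hydroxylase, was at 1016, 1018 and 1094 CPM in WT and 917, 831 and 891 CPM in KO (-0.25 ± 0.06, adjusted p = 0.0121). Neither group overlapped, but both calls were near the threshold: without KO replicate 3 the adjusted p was 0.0833 for PDIA4 and 0.0523 for P4HB, and without WT replicate 3 it was 0.0514 for PDIA4.

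HSPA5, HSP90B1 and CALR did not pass. HSPA5, which encodes BiP, the main ER HSP70, was at 386, 494 and 604 CPM in WT and at 431, 560.5 and 484 CPM in KO. The KO range lay inside the WT range, and the difference was -0.0062 ± 0.14 (edgeR adjusted p = 0.983). HSP90B1, the ER HSP90 (GRP94), was at 576, 672 and 765 CPM in WT and 511, 759 and 616 CPM in KO (-0.09 ± 0.14, adjusted p = 0.672). CALR, the lectin chaperone calreticulin, was at 919, 1012 and 1172 CPM in WT and 870.2, 869.9 and 884 CPM in KO. Its groups did not overlap, and with an adjusted p of 0.0504 (-0.24 ± 0.08) it stayed just outside the threshold. It passed with DESeq2 (0.0252), with DESeq2 size factors (0.0474), with library sizes (0.0144), with no filter on low counts (0.0436), with a replicate block (0.0227) and without WT replicate 1 (0.0153).

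The other 4 chaperone genes did not pass either. SDF2L1, a cofactor of ER J-domain proteins, was at 18.2 to 20.7 CPM in WT and 15.0 to 17.0 CPM in KO (-0.26 ± 0.10, edgeR adjusted p = 0.0979, and 0.0497 with library sizes). CRELD2 was at 56.2, 57.3 and 75.3 CPM in WT and 51.7 to 54.8 CPM in KO (-0.25 ± 0.11, adjusted p = 0.138). In both, every KO value was below every WT value. MANF, a protein of the ER lumen that can be secreted, was at 104, 132 and 163 CPM in WT and 117 to 119 CPM in KO (-0.17 ± 0.13, adjusted p = 0.378, and 0.0458 without WT replicate 1), and PDIA6 was at 507 to 607 CPM in WT and 510.3 to 554 CPM in KO (-0.06 ± 0.07, adjusted p = 0.604). In both, WT spread over the whole KO range. Together the 11 genes held 0.522%, 0.563% and 0.623% of all counts in WT and 0.464%, 0.491% and 0.480% in the KO libraries.

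**Figure D2:**
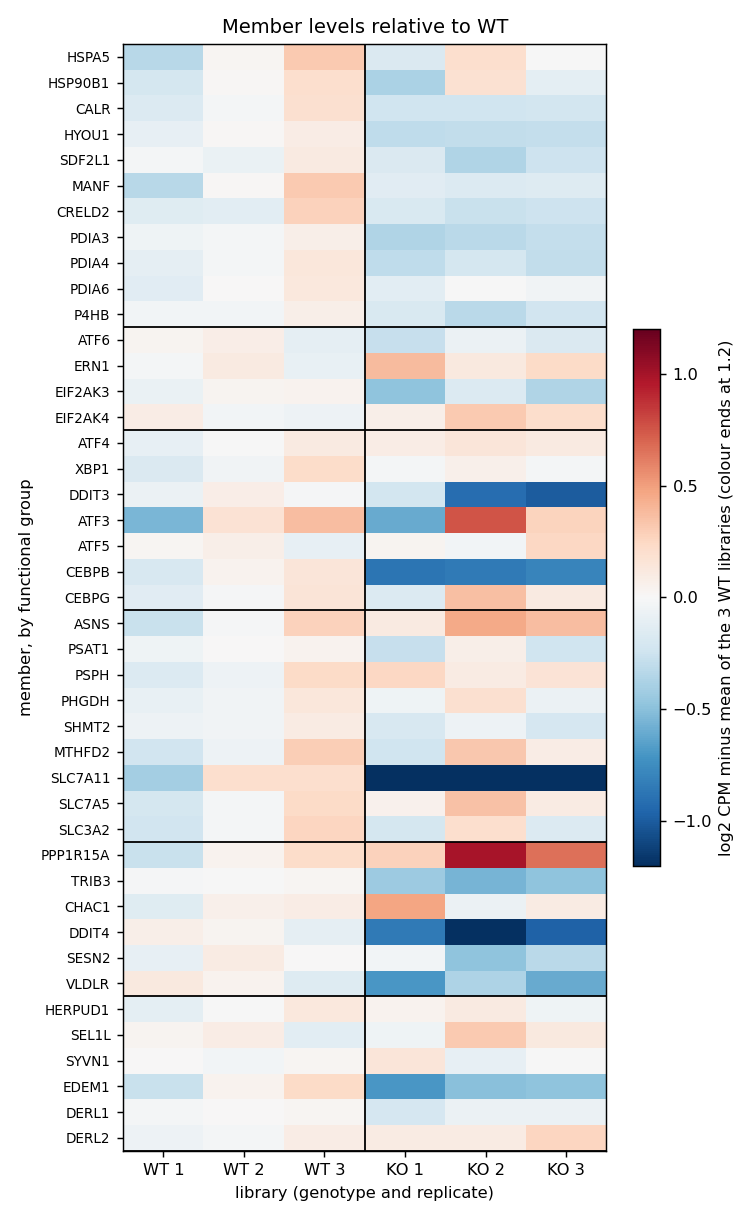
Log2 CPM of each member (rows, by group) in each library (columns), minus the mean of the 3 WT libraries; blue is lower and red higher, and differences beyond 1.2 take the end colour. Most chaperone and amino acid rows are blue in WT 1 and red in WT 3, and the KO columns are blue for DDIT4, CEBPB, TRIB3 and SLC7A11 in all 3 libraries.

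Of the 4 sensors, 1 fell (25%, against 11.5% of all genes tested). EIF2AK3 (ENSG00000172071, chromosome 2, 88556741 to 88628145), the ER kinase PERK, was at 51.2, 55.2 and 55.8 CPM in WT and at 38.6, 48.2 and 42.2 CPM in KO. The groups did not overlap, and the difference was -0.33 ± 0.10 (edgeR adjusted p = 0.0264). This call was lost without WT replicate 2 or 3 or KO replicate 1 or 3, with adjusted p from 0.0554 to 0.106. ERN1, the kinase and nuclease IRE1, was at 21.3 to 24.3 CPM in WT and 24.5 to 29.3 CPM in KO, without overlap and without passing (0.24 ± 0.10, adjusted p = 0.124). EIF2AK4, the amino acid sensor GCN2, was at 79.4 to 88.3 CPM in WT and 87.1 to 103 CPM in KO (0.20 ± 0.08, adjusted p = 0.104; it passed without KO replicate 1, adjusted p = 0.0291). ATF6 was at 93.7 to 107 CPM in WT and 83.5 to 96.5 CPM in KO (-0.17 ± 0.08, adjusted p = 0.149).

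Among the 7 transcription factors 2 fell (28.6%, against 11.5% of all genes tested) and 5 did not pass. CEBPB (ENSG00000172216, chromosome 20, 50190583 to 50192690), a bZIP factor that pairs with ATF4 and CHOP and also serves inflammatory and differentiation programmes, was at 15.5, 18.3 and 19.6 CPM in WT and at 9.68, 9.82 and 10.2 CPM in KO. The KO libraries were tightly grouped at 9.90 ± 0.278 CPM (SD, n = 3), against 17.8 ± 2.08 CPM in WT, and the difference was -0.85 ± 0.12 (edgeR adjusted p = 0.000414). DDIT3 (ENSG00000175197, chromosome 12, 57516588 to 57520517), which encodes the pro-apoptotic factor CHOP, was at 8.62, 9.59 and 8.999 CPM in WT and at 7.79, 4.82 and 4.52 CPM in KO. KO replicate 1 lay closer to WT than to the other KO libraries. The difference of -0.67 ± 0.21 (adjusted p = 0.0354) rested on 543 WT and 350 KO counts, and it was outside the threshold with any library but KO replicate 1 left out (adjusted p = 0.0685 to 0.142) and on counts from the transcript files (0.0661 summed, 0.0902 length-corrected).

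ATF4, the central factor of the integrated stress response, was at 148, 158 and 170.01 CPM in WT and 168, 174 and 171 CPM in KO, a difference of 0.11 ± 0.07 that did not pass (edgeR adjusted p = 0.280). ATF5 was at 15.8 to 17.8 CPM in WT and 16.6 to 20.1 CPM in KO, and CEBPG at 27.7 to 33.8 and 27.1 to 39.2 CPM. ATF5, CEBPG and ATF3 gave differences of 0.09 ± 0.11, 0.11 ± 0.14 and 0.20 ± 0.31. ATF3, an early stress factor, varied most of all members within a genotype: it was at 6.39, 10.6 and 12.1 CPM in WT and at 6.16, 15.7 and 11.3 CPM in KO. Replicate 1 was the lowest library of both genotypes.

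XBP1 did not pass the test, at 75.5, 82.9 and 99.1 CPM in WT and 83.8, 89.2 and 84.0 CPM in KO (-0.0031 ± 0.10, edgeR adjusted p = 0.989). Its RNA carries a direct readout of IRE1, since removal of a 26-base intron from the coding sequence shifts the reading frame to that of the active factor. The intron, in capitals with 12 bases on each side, is shown because its absence from the GENCODE 29 sequence was used to class a transcript as spliced. It is read from the GENCODE 29 transcript and lies at chr22:28796122-28796147 on the minus strand of GRCh38. The bases at its 2 ends repeat, so that other annotations place it shifted.

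XBP1 intron: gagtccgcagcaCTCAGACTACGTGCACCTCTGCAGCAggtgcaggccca

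The transcript without the intron (ENST00000344347) had 165, 27.4 and 0 estimated reads in WT and 62.7, 0 and 90.1 in KO, against 1345, 1539 and 1879 and 1560.0, 1759 and 1644 for the main unspliced transcript (ENST00000216037). The spliced share of TPM was 11.1%, 1.77% and 0% in WT (mean 4.29%, SD 5.95, n = 3) and 3.98%, 0% and 5.31% in KO (mean 3.09%, SD 2.76, n = 3). The genotypes overlapped, and an exact two-sided permutation test of the means gave p = 0.9, where 3 against 3 libraries cannot give less than 0.1. The share differed more between replicates than between genotypes, and WT replicate 1, with the highest share, had the lowest XBP1, HSPA5 and MANF of the WT libraries. These estimates of the spliced form rest on few reads, and a listed 0 can be a failed estimate. The spliced transcript is 1791 bases long in the files and 1131 bases in GENCODE 29, so it differs between the annotations. The main unspliced transcript is 1850 bases long in both. In the files the 2 transcripts therefore differ by more than the 26-base intron, and reads may have been divided by other bases too.

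**Figure D3:**
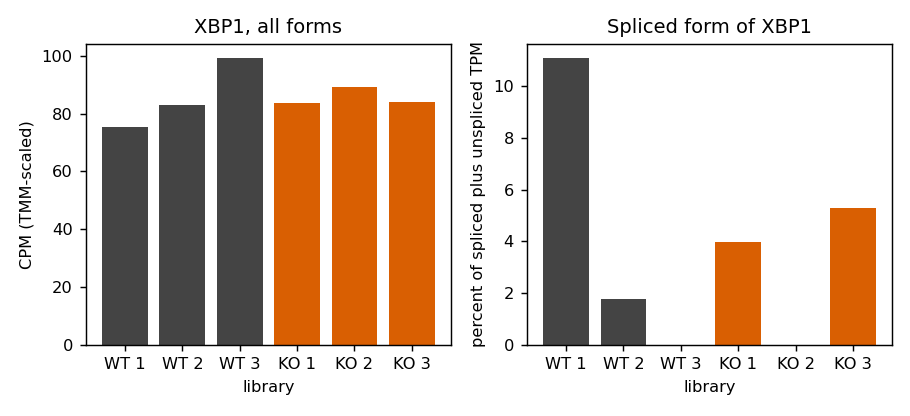
XBP1 in each library (x axis): bars give CPM of all forms on the left and, on the right, the spliced form as a percent of spliced plus unspliced TPM. The level runs from 75.5 to 99.1 CPM, and the spliced share from 0% in WT 3 and KO 2 to 11.1% in WT 1.

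Of the 9 amino acid genes that ATF4 controls 1 fell and 8 did not pass, and the median was 0.02. The share that fell, 11.1%, was near the 11.5% of all genes tested. SLC7A11 (ENSG00000151012, chromosome 4, 138164097 to 138242349), the xCT subunit that exchanges cystine for glutamate, was at 6.004, 9.14 and 9.15 CPM in WT and at 1.68, 2.84 and 3.40 CPM in KO. The highest KO library was below the lowest WT library, the difference was -1.61 ± 0.27 (edgeR adjusted p = 0.00124), and the counts behind it were 483 in WT and 165 in KO. SLC3A2, which encodes the heavy chain that pairs with xCT and with the leucine transporter, was at 51.6, 59.7 and 72.4 CPM in WT and 52.5, 69.6 and 54.3 CPM in KO (-0.06 ± 0.14, adjusted p = 0.809). That partner, SLC7A5, was at 48.4 to 65.8 CPM in WT and 58.1 to 71.2 CPM in KO (0.16 ± 0.12, adjusted p = 0.367).

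ASNS, asparagine synthetase, had the highest estimate of the group, at 49.4, 58.9 and 72.2 CPM in WT and 64.2, 81.6 and 76.8 CPM in KO (0.30 ± 0.13, edgeR adjusted p = 0.132). The groups overlapped in 1 pair of libraries. It passed without WT replicate 3 (adjusted p = 0.0372), without KO replicate 1 (0.0399) and with a replicate block (0.0213). The serine synthesis genes PHGDH, PSAT1 and PSPH gave 0.02 ± 0.09, -0.14 ± 0.10 and 0.16 ± 0.10, and the mitochondrial folate genes SHMT2 and MTHFD2 gave -0.15 ± 0.07 and 0.06 ± 0.15, with adjusted p from 0.166 to 0.882 over these 5. PSAT1 passed without KO replicate 2 (-0.26, adjusted p = 0.0253). In WT and KO respectively, PHGDH was at 96.1 to 112 and 97.3 to 117 CPM, PSAT1 at 62.0 to 66.4 and 53.0 to 67.5 CPM, PSPH at 45.6 to 59.8 and 54.6 to 60.8 CPM and MTHFD2 at 55.1 to 79.3 and 54.9 to 81.3 CPM. The genotypes overlapped in each of these 4. Among the 8 that did not pass, SHMT2 had all KO values below WT, at 105 to 115.9 CPM against 116.2 to 129 CPM, and on length-corrected counts its difference was -0.30 and passed (edgeR adjusted p = 0.0282). The group as a whole held 0.0546%, 0.0587% and 0.0672% of counts in WT and 0.0544%, 0.0642% and 0.0566% in KO, again without TMM scaling.

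Of the 6 effectors and feedback regulators 3 fell (50%), 1 rose (16.7%) and 2 did not pass. Over all genes tested 11.5% fell and 14.5% rose. DDIT4 (ENSG00000168209, chromosome 10, 72273924 to 72276036), also called REDD1, an inhibitor of mTORC1, was at 51.4, 49.9 and 45.4 CPM in WT and at 27.2, 18.8 and 25.0 CPM in KO, a difference of -1.05 ± 0.13 (edgeR adjusted p = 0.000152). All 3 KO libraries were well below the lowest WT library. TRIB3 (ENSG00000101255, chromosome 20, 380760 to 397559), a pseudokinase that ATF4 and CHOP induce and that feeds back on both, was at 41.5, 42.1 and 42.6 CPM in WT and at 31.1, 28.6 and 30.0 CPM in KO. It had the tightest WT replicates of all members (coefficient of variation 1.31%), and the difference was -0.49 ± 0.08 (adjusted p = 0.00114).

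VLDLR (ENSG00000147852, chromosome 9, 2621787 to 2660056), a lipoprotein and reelin receptor that ATF4 can induce, was at 53.5, 50.9 and 44.6 CPM in WT and at 30.5, 38.3 and 32.7 CPM in KO (-0.55 ± 0.11, edgeR adjusted p = 0.00330). PPP1R15A (ENSG00000087074, chromosome 19, 48872421 to 48876058) encodes GADD34, the phosphatase subunit that reverses eIF2 phosphorylation. It was at 43.4, 53.8 and 60.5 CPM in WT and at 63.2, 103 and 82.1 CPM in KO, a difference of 0.66 ± 0.17 (adjusted p = 0.0150). The KO libraries differed among themselves by more than the gap to WT, and the call was lost without WT replicate 1 (adjusted p = 0.0641) or WT replicate 2 (0.0548). CHAC1, a glutathione-degrading enzyme downstream of ATF4 and CHOP, was low at 3.44 to 4.04 CPM in WT and 3.61 to 5.30 CPM in KO (0.18 ± 0.21, adjusted p = 0.599), and SESN2, a leucine-sensing inhibitor of mTORC1, was at 20.4 to 23.2 CPM in WT and 15.6 to 21.2 CPM in KO (-0.27 ± 0.13, adjusted p = 0.150, and 0.0212 without KO replicate 1).

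Of the 6 degradation genes tested, 1 fell (16.7%, against 11.5% of all genes tested) and 5 did not pass. EDEM1 (ENSG00000134109, chromosome 3, 5187707 to 5219958), a mannosidase-like protein that extracts misfolded glycoproteins from the folding cycle, was at 75.7, 93.8 and 107 CPM in WT and at 56.2, 64.4 and 65.4 CPM in KO. The groups did not overlap, and the difference was -0.57 ± 0.12 (edgeR adjusted p = 0.00486; 0.0574 after length correction of the transcript files' counts). The ubiquitin ligase SYVN1 (HRD1) was at 39.5 to 41.2 CPM in WT and 37.6 to 44.7 CPM in KO (0.02 ± 0.09), and its partner SEL1L at 59.5 to 69.3 and 62.6 to 81.1 CPM (0.13 ± 0.10). HERPUD1, a stress-induced member of the HRD1 complex, was at 30.4, 32.8 and 36.2 CPM in WT and 34.1, 35.5 and 31.9 CPM in KO (0.03 ± 0.10). DERL1 was at 87.6 to 90.3 CPM in WT and 77.7 to 85.1 CPM in KO, and DERL2 at 46.9 to 52.1 and 52.4 to 58.6 CPM. The derlin genes DERL1 (-0.11 ± 0.07) and DERL2 (0.15 ± 0.08) lay on opposite sides of 0 with no overlap between genotypes and without passing (adjusted p = 0.291 and 0.218). For SYVN1 and HERPUD1 the sign turned with library sizes in place of TMM scaling and on length-corrected counts, and for DERL2 on length-corrected counts.

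**Figure D4:**
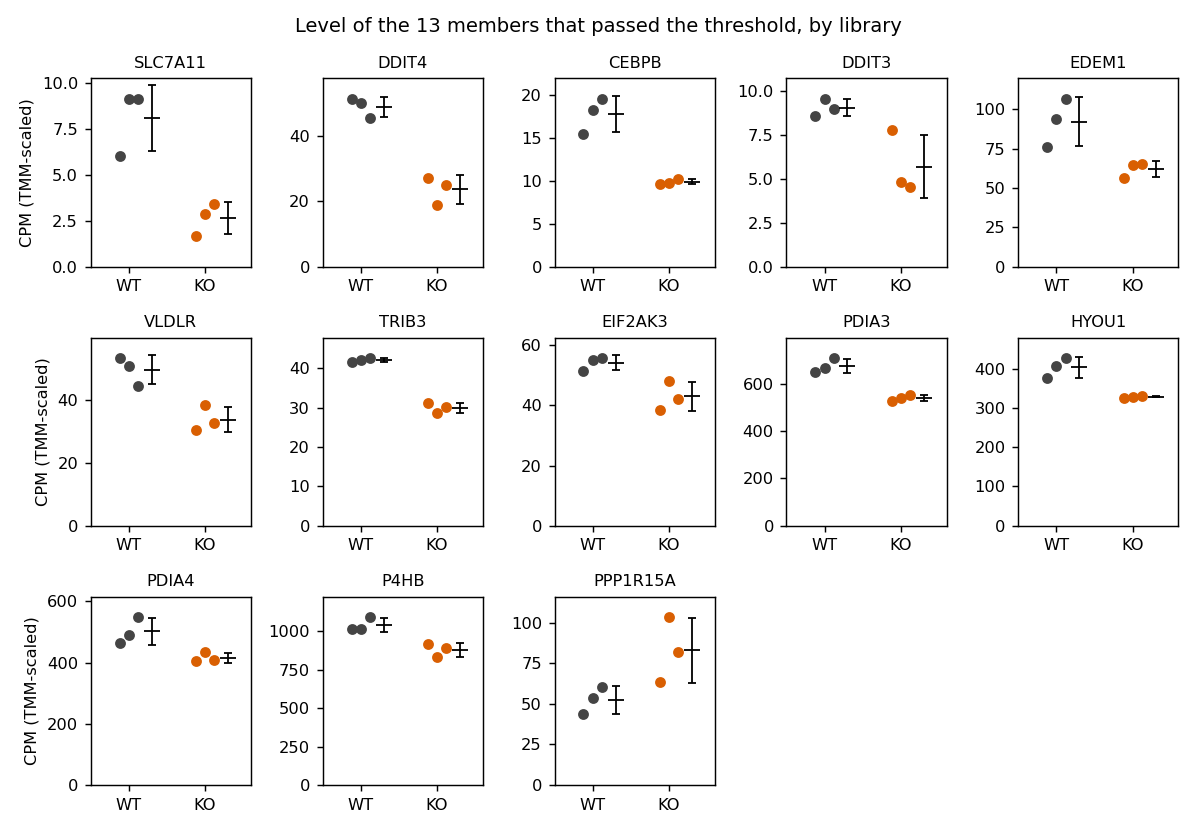
CPM (y axis, from 0) of the 13 members that passed the threshold, 1 panel a gene; dots are the 3 WT and 3 KO libraries, and the bar beside them is mean and SD. In each of the 12 that fell the highest KO dot is below the lowest WT dot, and for PPP1R15A the lowest KO dot is above the highest WT dot.

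The WT libraries differed from each other in these genes. WT replicate 1 was the lowest and WT replicate 3 the highest of the WT libraries in 32 of 43 members (74.4%), against 21.9% of all genes tested. It held for 10 of 11 chaperones, all 9 amino acid genes, 5 of 7 transcription factors and 4 of 6 degradation genes, but for 1 of 4 sensors and 3 of 6 effectors. HSPA5 and MANF had a WT coefficient of variation of 22.05% and 22.1%, ATF3 of 30.6% and SLC7A11 of 22.4%, where the median over the members was 8.57%. In KO, replicate 1 was the lowest and replicate 2 the highest in 20 of 43 members (46.5%), against 28.8% of all genes. The median in KO was 8.75%. Single members differed in both directions: the coefficient of variation was 0.676% in KO against 22.1% in WT for MANF, and 31.7% against 5.41% for DDIT3. The members were chosen by function with earlier results of these data known, and this order within replicates was noticed after their values were seen.

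Per length, in TPM summed over the transcripts that GENCODE 29 assigns to a gene, levels could be compared between 30 of the members; for the other 13 tested those transcripts did not account for the gene table's counts within 10%. Among these 30, CALR was the highest in WT at 775 ± 83.3 TPM (SD, n = 3), followed by PDIA6 at 355 ± 25.8, HSP90B1 at 338 ± 42.0 and MANF at 248 ± 52.7 TPM. P4HB, one of the 13 left out, had 435, 427 and 451 TPM in WT from its leading transcript alone, above PDIA6. PDIA6 and HSP90B1 did not differ beyond their spread. SLC7A11 was the lowest of the 30 at 1.31 ± 0.273 TPM in WT and 0.409 ± 0.135 TPM in KO, with CHAC1 next at 3.90 ± 0.377 TPM in WT. In TPM, TRIB3 went from 28.1 ± 0.311 to 19.5 ± 1.21, CEBPB from 17.7 ± 1.97 to 9.34 ± 0.318, EDEM1 from 21.6 ± 3.73 to 15.2 ± 1.30 and PPP1R15A from 31.5 ± 4.75 to 47.6 ± 12.1. Unlike in CPM, the genotypes of PPP1R15A overlapped in TPM, at 35.64 in WT replicate 3 and 35.58 in KO replicate 1.

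The chromosomal surroundings of the 13 changed members were read as well. Over the tested genes within 2 Mb of each member, the median log2 difference lay between -0.12 around PPP1R15A, which rose, and 0.22 around VLDLR, which fell. Around SLC7A11, DDIT4 and CEBPB it was -0.09 (11 genes), -0.07 (45 genes) and 0.01 (31 genes).

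The promoters of the members were searched for elements through which these pathways act, in RefSeq windows (GRCh38.p14) of 250 bases before to 50 after a start site. The ER stress element ERSE, bound by NF-Y with ATF6, is CCAAT, 9 bases of any kind and CCACG; ERSE-II is ATTGG, 1 base of any kind and CCACG. The unfolded protein response element UPRE, an XBP1 and ATF6 site, was searched as TGACGTGG, and the ATF4 composite element CARE as TGATGNAAN, all on both strands. Of 44 members 38 had a window; DERL1, DERL3, PDIA3, PSPH, SHMT2 and SLC7A11 had none. Counted per gene, ERSE was found in 6 of the 38 members (15.8%) and in 0.0916% of all 27305 genes with a window, ERSE-II in 3 (7.89%) and 0.0696%, CARE in 6 (15.8%) and 4.45%, and UPRE in 1 (2.63%) and 0.927%. Counted per window, the shares over all 35116 windows were 0.0769%, 0.0541%, 3.61% and 0.729% in the same order. A match is a run of letters and not a measured binding site.

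The ERSE and ERSE-II matches are printed because they mark which chaperone promoters carry the element beside the RNA values above. Capitals are the match, with 15 bases on each side, 5′ to 3′ on the gene's strand; a match on the opposite strand reads as its reverse complement. HSP90B1 carries 2 ERSE matches and HYOU1 2 ERSE-II matches, of which the farther overlaps the UPRE match.

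HSPA5, chr9:125241376-125241424, minus strand: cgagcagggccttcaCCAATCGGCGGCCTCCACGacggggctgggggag
HSP90B1 first, chr12:103930201-103930249, plus strand: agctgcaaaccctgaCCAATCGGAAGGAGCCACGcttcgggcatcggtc
HSP90B1 second, chr12:103930306-103930354, plus strand: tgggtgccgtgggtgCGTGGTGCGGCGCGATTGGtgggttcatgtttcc
PDIA6, chr2:10812838-10812886, minus strand: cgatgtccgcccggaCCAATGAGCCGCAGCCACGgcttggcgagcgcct
CALR, chr19:12938369-12938417, plus strand: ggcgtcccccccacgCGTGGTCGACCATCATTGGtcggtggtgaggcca
CRELD2, chr22:49918539-49918587, plus strand: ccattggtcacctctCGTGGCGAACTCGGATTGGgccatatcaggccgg
XBP1, chr22:28800588-28800636, minus strand: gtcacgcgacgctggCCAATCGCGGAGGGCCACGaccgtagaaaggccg
HYOU1 first, chr11:119057365-119057405, minus strand: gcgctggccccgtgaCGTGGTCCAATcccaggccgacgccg
HYOU1 second, chr11:119057259-119057299, minus strand: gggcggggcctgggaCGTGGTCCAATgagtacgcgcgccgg
SDF2L1, chr22:21642099-21642139, plus strand: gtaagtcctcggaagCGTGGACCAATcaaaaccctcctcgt
HERPUD1, chr16:56932010-56932050, plus strand: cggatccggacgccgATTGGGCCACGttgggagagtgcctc

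The CARE matches upstream of a start site are shown beside them, since ATF4 targets are the other large group of members. HERPUD1 carries both kinds. The match of SLC3A2 lay after the start site and is not printed.

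ASNS, chr7:97872453-97872491, minus strand: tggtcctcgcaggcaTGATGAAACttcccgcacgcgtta
CHAC1, chr15:40953246-40953284, plus strand: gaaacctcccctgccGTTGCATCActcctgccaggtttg
CEBPG, chr19:33374056-33374094, plus strand: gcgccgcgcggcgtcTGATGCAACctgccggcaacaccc
ATF3, chr1:212565201-212565239, plus strand: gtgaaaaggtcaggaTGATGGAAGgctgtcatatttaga
HERPUD1, chr16:56931950-56931988, plus strand: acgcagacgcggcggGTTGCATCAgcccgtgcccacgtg

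Of the 9 members with an ERSE or ERSE-II match 1 fell (HYOU1) and 0 rose, with a median of -0.09 and a range from -0.30 to 0.03; over all genes tested 11.5% fell. None of the 6 with a CARE match passed edgeR's test (median 0.15, range -0.06 to 0.30). Of the 24 with neither, 9 fell and 1 rose, with a median of -0.16 and a range from -1.05 to 0.66. Over all genes tested 11.5% fell and 14.5% rose. The classes are small, and differences between them were not tested. No match says only that these letters are not in this window.

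**Figure D5:**
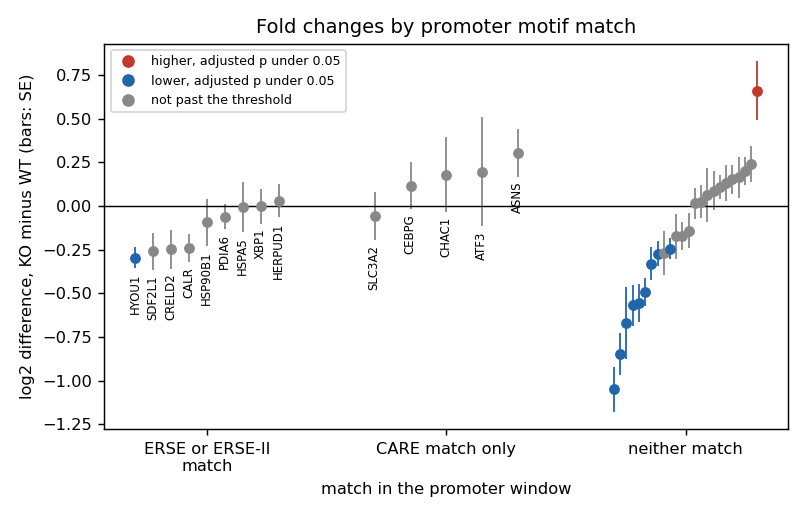
Log2 difference, KO minus WT (y axis; bars are SE, n = 3 per genotype), of the 38 members with a promoter window, by motif match (x axis). HYOU1 is the single coloured point among the 9 members with an ERSE or ERSE-II match, the 5 with a CARE match only are all grey, and the other 10 coloured points have neither match.

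Other genes of the same pathways were read from 4 lists of 116 genes, of which 113 were tested; 17 rose and 22 fell, 15.0% and 19.5%. Over all genes tested these shares were 14.5% and 11.5%. These lists too were chosen with earlier results of these data known. Medians over neighbours within 2 Mb are given for CANX, DNAJB11, FAF2, EIF2B5, CREB3L2, SLC38A2, SQSTM1 and STC2, and their part in the results was not tested. Around the other genes named from these lists the medians lay between -0.13 and 0.055. In the list of ER folding and protein entry 11 of 31 fell (35.5%) and 2 rose (6.45%). DNAJB11, named after its values were seen, is among the 11 (-0.56 ± 0.14, edgeR adjusted p = 0.0112). On chromosome 3, 18 of its 19 tested neighbours within 2 Mb had estimates below 0 (median -0.46). ERP29, a luminal folding factor, went from 206 ± 4.73 to 133 ± 5.02 CPM (SD, n = 3; -0.63 ± 0.06, edgeR adjusted p = 2.91e-05), and the thioredoxin-like gene TXNDC12 from 159 ± 2.62 to 109 ± 3.13 CPM (-0.54 ± 0.06, adjusted p = 8.43e-05). SSR3, a translocon-associated subunit, rose (0.36 ± 0.09, adjusted p = 0.0158). CANX, the membrane lectin chaperone calnexin, also rose (0.65 ± 0.11, adjusted p = 0.00104), and 35 of its 36 tested neighbours within 2 Mb on chromosome 5 had estimates above 0 (median 0.75).

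In the list of further degradation and ER turnover genes 6 of 21 fell (28.6%) and 1 rose (4.76%). Both named falls were receptors for autophagy of the ER: RETREG1 from 9.58 ± 1.40 to 3.07 ± 0.794 CPM (SD, n = 3; -1.64 ± 0.21, edgeR adjusted p = 0.000226) and CCPG1 from 39.3 ± 1.44 to 23.5 ± 5.46 CPM (-0.74 ± 0.15, adjusted p = 0.00341). FAF2, which recruits the VCP segregase, rose (0.66 ± 0.07, adjusted p = 3.64e-05), and 40 of its 41 tested neighbours, also on chromosome 5, had estimates above 0 (median 0.62). Among 24 genes of the other arms and of eIF2 control 4 rose (16.7%) and 3 fell (12.5%). These shares were near the 14.5% and 11.5% over all genes tested. The membrane-bound bZIP factor genes CREB3L1 (0.630 ± 0.216 to 2.43 ± 0.286 CPM, SD, n = 3; 1.93 ± 0.35, edgeR adjusted p = 0.00212) and CREB3L2 (0.32 ± 0.07, adjusted p = 0.00851) rose; around CREB3L2, 11 of 15 neighbours had estimates above 0 (median 0.16). NFE2L1, the ER-anchored regulator of proteasome genes, fell (-0.25 ± 0.05, adjusted p = 0.00677), and so did the eIF2B catalytic subunit gene EIF2B5 (-0.65 ± 0.07, adjusted p = 4.75e-05), whose 35 tested neighbours on chromosome 3 had a median of -0.47.

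Of 37 further targets of ATF4 and CHOP tested, 10 rose (27.0%), 2 fell (5.41%) and 25 did not pass. SQSTM1 and STC2, named after their values were seen, are 2 of the 10 and lie on chromosome 5 among neighbours with medians of 0.75 and 0.70. SLC38A2, the amino acid transporter SNAT2, rose from 128 ± 10.6 to 276 ± 37.6 CPM (SD, n = 3; 1.103 ± 0.10, edgeR adjusted p = 1.80e-05), with 16 of its 20 neighbours above 0 (median 0.17), and the death receptor gene TNFRSF10B from 67.7 ± 7.63 to 114 ± 13.1 CPM (0.75 ± 0.10, adjusted p = 0.000344). VEGFA, the angiogenic growth factor, fell (-0.69 ± 0.10, adjusted p = 0.000594), as did GDF15, a stress-induced cytokine (-0.81 ± 0.13, adjusted p = 0.00105).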

How the data were processed

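Total RNA of 3 WT and 3 KO libraries was sequenced. The deposited gene table holds expected (estimated) counts, and the deposited transcript files give Salmon's estimated counts and TPM per transcript, per the file headers. Tools in the submitters' processing notes are DESeq2 1.42.1, Salmon 1.10.0 and cutadapt 3.5, with GRCh38.p14 as genome; strand settings are not given in the sources used here. Here, 403 repeated rows of 154 genes with identical counts were dropped from 21071, leaving 20668 genes. Counts were rounded and fitted with edgeR 4.0.16 (R 4.3.3): filterByExpr, TMM scaling, and the quasi-likelihood test with Benjamini-Hochberg adjustment over 16403 genes and a threshold of 0.05; SE is the absolute log2 difference over the root of F. On simulated data with 16403 genes, the fit called 46.3% of 67 genes changed 1.5-fold, 68.7% of 67 changed 2-fold and 93.9% of 66 changed 4-fold, and 6.71% of its calls were false. Only those genes were changed in the simulation, whereas 4270 genes were called in the data, so these rates need not hold for the data.

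By the naming rule, members past the threshold have values for every library and the others at least a range or their values by library; named too are the 2 genes with the smallest adjusted p in each direction of each further list. Transcripts were assigned to genes by GENCODE 29, which held 201667 of 251955 transcripts; members were matched by symbol. The members and lists were chosen with earlier results of these data known. Alternatives were DESeq2 1.42.0, limma-voom (limma 3.58.1), other scaling and filters, a replicate block, each library left out, and, chosen after seeing the data, transcript counts restricted to genes agreeing within 10% with the gene table.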

Additional observations from a re-analysis of the deposited data

How the results depend on the processing

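Calls number 4270 over all genes, 1 higher and 12 lower among members, and 17 higher and 22 lower among the other pathway genes. With 1 library left out they ranged from 2966 to 4772, 0 to 3, 8 to 13, 11 to 20, and 11 to 23. Correlations of same-numbered deviations were 0.06, -0.03 and -0.07, and those of other numbers ran from -0.08 to 0.10. They cannot show whether samples were paired by replicate number. A replicate block gave 4565 calls over all genes, with 2 members higher and 13 lower. Transcript files cover 30 members, 5 of them lower in the gene table; 4 were lower with summed counts (DDIT3 lost) and 4 with length-corrected counts (DDIT3 and EDEM1 lost, SHMT2 gained). Length correction called 2495 of 13164 genes, against 1917 higher and 1594 lower of 13172 covered genes in the gene table, and 14 pathway genes lower, against 19. The cause was not tested. The called members kept their sign in all alternatives run, with 17 calls lost; among the others 15 values gained a call and 37 changed sign. The XBP1 spliced share difference ranged from -3.33 to 2.21 points with 1 library left out. On simulated data the fit called 46.3% of 67 genes changed 1.5-fold, which were drawn at random from all genes tested. The simulation changed far fewer genes than were called in the data, so this rate need not hold for the members. Among the called members under 1.5-fold, HYOU1, PDIA3, TRIB3 and VLDLR kept the call in every alternative. EIF2AK3 lost it in 4 of 13, PDIA4 in 2 of 13, P4HB in 1 of 13 and EDEM1 in 1 of 15.

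Sign changes, as log2 differences, were as follows. With limma-voom HSPA5 was 0.011 and XBP1 0.0069; with a replicate block they were 0.0091 and 0.0045; with a mean of at least 1 CPM XBP1 was 0.0022. With library sizes PHGDH was -0.031, HERPUD1 -0.025 and SYVN1 -0.040. With length-corrected counts XBP1 was 0.0034, ATF3 -0.051, HERPUD1 -0.075, SYVN1 -0.0083 and DERL2 -0.0055. With 1 library left out the ranges were -0.16 to 0.16 for HSPA5, -0.25 to 0.036 for HSP90B1, -0.13 to 0.00039 for PDIA6, -0.089 to 0.11 for XBP1, -0.14 to 0.48 for ATF3, -0.0014 to 0.14 for ATF5, -0.025 to 0.24 for CEBPG, -0.065 to 0.092 for PHGDH, -0.079 to 0.22 for MTHFD2, -0.20 to 0.076 for SLC3A2, -0.031 to 0.093 for HERPUD1 and -0.053 to 0.070 for SYVN1.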
